A study of Mus musculus with 10 samples.

Results

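The genes described here are 10 genes of lipoprotein assembly in mouse liver, namely the apolipoproteins Apoa1, Apoa2, Apoa4, Apoa5, Apob, Apoc1, Apoc3, Apoe and Apom together with Mttp, the microsomal triglyceride transfer protein. They were taken by gene symbol from a count table of 55421 gene identifiers, and each symbol matched a single identifier. RNA was taken from whole livers of 10 male mice after retro-orbital injection of AAV8, a liver-directed adeno-associated virus. The histone variant H3.3 is made from H3f3a and H3f3b. H3.3 KO livers came from 4 C57BL/6 mice with floxed alleles of both genes (H3f3a fl/fl, H3f3b fl/fl) and AAV8 Tbg-Cre. Controls were 3 wild-type mice given AAV8 Tbg-Cre (WT Cre) and 3 mice with the floxed alleles given the control vector AAV8 Tbg-MCS (MCS). Injection was at 6 months of age in every mouse, and RNA was taken 3 weeks after it. Tbg is a hepatocyte promoter, so the other cells of the liver keep their H3f3a and H3f3b alleles. For the floxed mice the genotype field of the sample labels names HIRA fl/fl, whereas the titles and the design text name H3f3a and H3f3b, and the titles were followed here. The comparisons asked how the livers that lost H3.3 differed from each kind of control and from both kinds together.

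Lipoproteins carry triglyceride and cholesterol through the blood, and the hepatocyte is a main source of their proteins. Very low density lipoprotein (VLDL) is built around a single copy of apolipoprotein B, onto which the Mttp protein loads lipid in the endoplasmic reticulum. High density lipoprotein (HDL) is built around apolipoproteins A-I and A-II. The smaller exchangeable apolipoproteins move between particles and steer their lipolysis and uptake. Apolipoprotein E binds the receptors that clear remnant particles, apolipoproteins C-I and C-III slow clearance, and apolipoprotein A-V promotes lipolysis. Apolipoprotein M sits on HDL and carries sphingosine-1-phosphate. Most of these genes are known targets of the hepatocyte nuclear receptor HNF4A.

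Of the 10 genes, 6 lie in 2 clusters. In the mm10 build with GENCODE M21 annotation, Apoa1 (chr9:46228580-46230466, plus strand), Apoc3 (chr9:46232933-46235636, minus strand), Apoa4 (chr9:46240696-46243459, plus strand) and Apoa5 (chr9:46268633-46271919, plus strand) stand within 43340 bases. Apoe (chr7:19696109-19699188) and Apoc1 (chr7:19689481-19692660) both lie on the minus strand, 3448 bases apart. Apoa2 (chr1:171225054-171226379, plus strand), Apob (chr12:7977648-8016835, plus strand), Apom (chr17:35128997-35132050, minus strand) and Mttp (chr3:138089854-138144968, minus strand) stand elsewhere. No member overlapped another gene on its own strand. Genes on the opposite strand overlapped Apoa4, Apoa5 and Mttp, and whether the counting used strand is not given in the sources used here.

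The RefSeq table of promoter windows (build GRCm38.p6, 250 bases before to 50 after the start of transcription) held 8 of the 10 genes, all but Apoc1 and Apoc3. The windows of Apoa1, Apoa2 and Apoe are shown because the largest decrease and the decreases without overlap between groups belong to these genes, and that of Apom because it differed in the other direction. They lie at chr9:46228380-46228679 (Apoa1, plus strand), chr1:171224804-171225103 (Apoa2, plus strand), chr7:19699139-19699438 (Apoe, minus strand) and chr17:35131752-35132051 (Apom, minus strand). The RefSeq start of Apom lies 249 bases from the GENCODE start of the gene, that of Apoa1 50 bases, and those of Apoa2 and Apoe coincide with it. Capitals mark matches to TATAAA, the letters of a TATA box, and to GGGTCA, letters that nuclear receptors can bind, each searched on both strands.
Apoa1: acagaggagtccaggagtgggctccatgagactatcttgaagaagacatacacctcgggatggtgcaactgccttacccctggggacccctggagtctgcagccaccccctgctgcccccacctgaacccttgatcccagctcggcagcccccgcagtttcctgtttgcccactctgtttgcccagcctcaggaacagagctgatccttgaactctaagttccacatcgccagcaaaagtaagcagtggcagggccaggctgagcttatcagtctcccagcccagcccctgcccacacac
Apoa2: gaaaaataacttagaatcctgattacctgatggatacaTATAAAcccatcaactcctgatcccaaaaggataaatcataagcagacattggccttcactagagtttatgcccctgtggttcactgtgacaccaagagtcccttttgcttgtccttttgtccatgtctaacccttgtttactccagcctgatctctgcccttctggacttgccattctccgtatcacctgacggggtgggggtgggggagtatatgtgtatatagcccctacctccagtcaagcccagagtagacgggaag
Apoe: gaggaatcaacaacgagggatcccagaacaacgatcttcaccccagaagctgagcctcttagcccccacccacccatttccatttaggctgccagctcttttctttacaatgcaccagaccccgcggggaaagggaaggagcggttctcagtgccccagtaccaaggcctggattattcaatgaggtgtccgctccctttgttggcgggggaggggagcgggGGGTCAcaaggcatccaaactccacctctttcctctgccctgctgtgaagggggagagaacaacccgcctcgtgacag
Apom: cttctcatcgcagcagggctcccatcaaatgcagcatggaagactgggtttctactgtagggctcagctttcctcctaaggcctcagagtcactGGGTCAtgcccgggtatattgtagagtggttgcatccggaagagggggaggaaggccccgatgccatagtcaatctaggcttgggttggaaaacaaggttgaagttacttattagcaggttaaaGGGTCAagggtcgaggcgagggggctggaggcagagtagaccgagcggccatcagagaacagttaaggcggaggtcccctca
GGGTCA was found in 3 of the 8 windows, those of Apoe, Apom and Apoa5, and in 13.7% of the 32851 promoter windows of the table. The Apom window held it at -156 and at -32 and the Apoe window at -28 from the start, counted to the first base of the match. TATAAA was found in 3 of the 8 windows (Apoa2, Apoa5 and Apob) and in 13.6% of all windows. AGGTCA, another nuclear receptor element, was found in none of the 8 windows, against 16.3% of all windows. A match describes the letters alone, and binding was not measured.

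The libraries held between 14998426 and 26096141 counts over genes, with KO 1 the shallowest. H3f3a stood at 15.97 to 19.0 CPM (counts scaled to the library size after TMM normalization) in KO against 59.9 to 63.7 in the controls, and H3f3b at 39.8 to 56.7 against 136 to 204. KO 1 stood apart from the other KO livers. On the first principal component, which held 74.2% of the variance of the 1000 most variable genes, KO 1 lay at 22.1, the other KO livers at 64.8 to 66.5 and the controls at -40.9 to -33.3. Calls that change without KO 1 are given beside the results. Of 8 hepatocyte markers all were detected, and their summed level was 78834 to 91614 CPM in KO, 103539 to 113657 in WT Cre and 122550 to 152516 in MCS, a sum that is mostly Alb. Of these 8 markers 5 fell and none rose against all controls, and 3 fell and none rose against WT Cre. All 8 markers of Kupffer cells and macrophages, which also express Apoe and Apoc1, rose against all controls, from a summed 195 to 240 CPM in WT Cre and 199 to 373 in MCS to 459 to 998 in KO. All 7 stellate cell markers also rose against all controls (6 of 7 against MCS). In whole liver, fewer cells of a type and less RNA per cell cannot be told apart, and the part of these markers in the results below was not tested.

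Several of the apolipoprotein genes were abundant in these livers, though not all of them. The 10 genes together took a mean of 4.35% (SD 0.445) of all counts over the 6 control livers and of 3.67% (SD 0.309) over the 4 KO livers. The control livers ranged from 3.76% to 4.84% and the KO livers from 3.43% to 4.09%, so the ranges overlapped. On the deposited FPKM scale, which divides by transcript length, Apoe was the most abundant member in the controls at 18885 ± 1748 FPKM (SD, n = 6), followed by Apoa2 at 11932 ± 1163 and Apoc1 at 10183 ± 896. Apoa1 stood at 5786 ± 2075 FPKM and Apoc3 at 3413 ± 501. Apob at 933 ± 103 FPKM (n = 5, since 1 WT Cre value was blank although that library held 106355 Apob counts) and Apoa5 at 857 ± 82.2 FPKM were near each other. Apoa4 (183 ± 69.0 FPKM), Apom (122 ± 31.1) and Mttp (75.6 ± 10.5) were the lowest. The ranges of neighbours overlapped for Apoa2 and Apoc1, Apoa1 and Apoc3, Apob and Apoa5, and Apoa4 and Apom, so the order within these pairs is not set by the controls. The order also depended on the length used. With CPM per kilobase of merged exons Apoa2 stood first (11912 ± 1237) and Apoe after it (9006 ± 625), Apoa1 before Apoc1, Apoa5 before Apob and Apom before Apoa4. In the KO livers the order by FPKM was the same as in the controls, but the distance between Apob and Apoa5 had widened to 1204 ± 83.9 against 772 ± 125 FPKM, and their ranges no longer overlapped. Per kilobase of merged exons this pair went from Apoa5 at 1.58 times Apob without overlap in the controls to 1.01 times with overlap in KO. On both scales Apob gained on Apoa5. Which of the pair stood higher, and so whether they drew apart or together, depended on the length used.

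**Figure D1:**
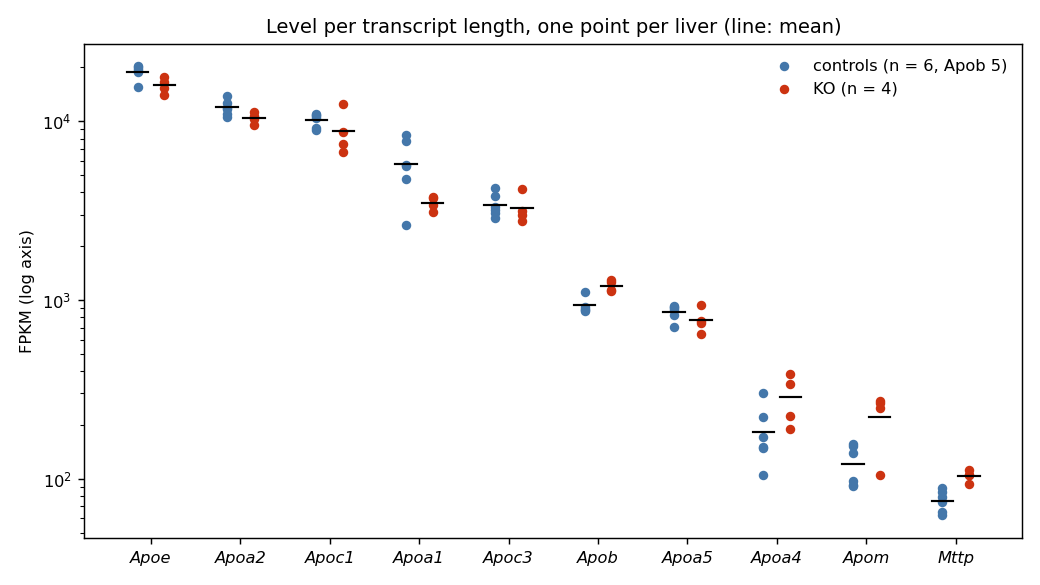
Deposited FPKM (log axis) of the 10 genes, in order of their control means. Points are single livers, with the 6 controls (5 for Apob) beside the 4 KO livers, and lines are means. Apoe stood at the top and Mttp at the bottom in both controls and KO.

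Against all 6 controls, 4 of the 10 genes fell in KO (Apoa1, Apoa2, Apoa5 and Apoe), 1 rose (Mttp), and the other 5 did not pass an adjusted p of 0.05 in edgeR's quasi-likelihood test. Over all 22449 genes tested 36.3% passed, 19.7% higher and 16.6% lower. No member passed the test together with the fold limit of the study, an absolute log2 fold change over 1, in edgeR or DESeq2 with all 10 livers. Of all genes 18.7% did in edgeR (12.9% higher and 5.79% lower). An unadjusted p under 0.05 in edgeR was held by 7 members. The share of all genes at that level was not counted, though it is at least 36.3%. The count of 7 is therefore not read as a result about the members. The 4 KO livers lay fully above or below all 6 controls for 3 of the 10 genes, as for 24.5% of all genes. The median log2 fold change over the members was -0.34, beside -0.00299 over all genes. Without KO 1, 6 members fell and 2 rose, against 18.9% and 22% of all genes.

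**Figure D2:**
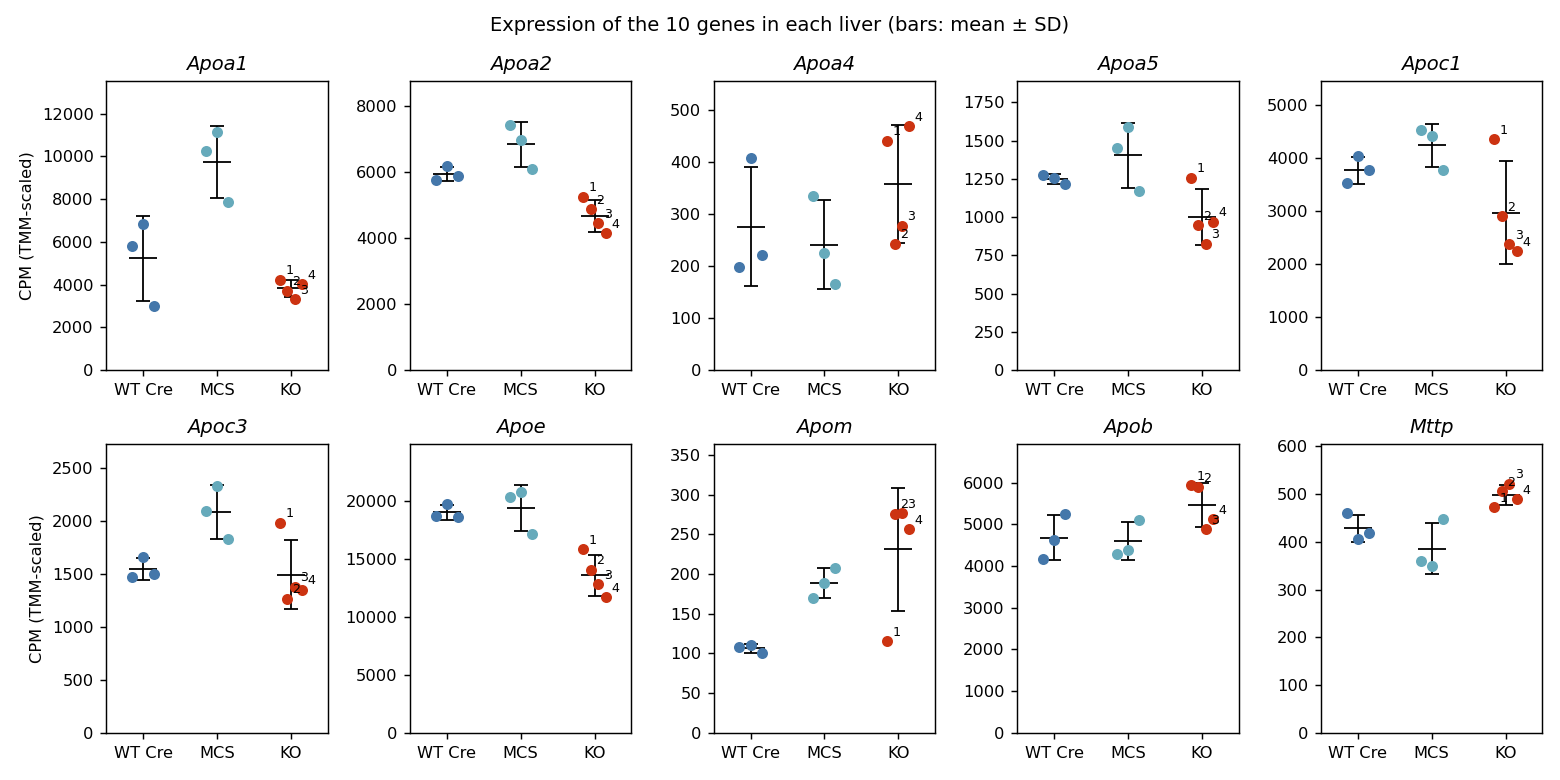
CPM of each gene in each liver (linear axes from 0), by group, with the group mean and SD as lines and bars and the KO livers numbered. The KO livers of Apoa2 and Apoe lay below all controls and those of Mttp above them, and KO 1 stood apart from KO 2 to 4 in Apoc1, Apoc3 and Apom.

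Among the HDL apolipoproteins, Apoa1 had the largest change of all members against all controls with TMM scaling. With library totals alone Apom had the largest (0.86, beside -0.77 for Apoa1). On FPKM Apom (0.81) also exceeded Apoa1 (-0.63), apart from Apob, which reached 2.57 where its blank WT Cre value was read as 0. Apoa1 encodes apolipoprotein A-I, the main structural protein of HDL. It stood at 4235, 3713, 3324 and 4028 CPM in the KO livers, at 5825, 6858 and 2992 CPM in WT Cre and at 10256, 11127 and 7860 CPM in MCS. The KO values lay close together and below 5 of the 6 controls, with only WT Cre 3 lower than all of them. The mean was 3825 ± 397 CPM in KO (SD, n = 4) against 7487 ± 2981 in the controls (SD, n = 6). The log2 fold change was -0.97 ± 0.30 (SE), with an adjusted p of 0.0232 in edgeR and an exact two-sided permutation p of 0.0429. This call was lost in 6 of 19 alternative settings, among them without KO 2 (adjusted p 0.0583 in edgeR) or KO 3 (0.0675), with no filter on low counts (0.0797) and on FPKM. Apoa1 passed the fold limit as well without WT Cre 1 (-1.03, adjusted p 0.0249 in edgeR), WT Cre 3 (-1.12, 0.00123) or KO 1 (-1.02, 0.0499). Against MCS alone Apoa1 fell by 1.35 ± 0.23 on the log2 scale, with an adjusted p of 0.00119 in edgeR, and was past the fold limit as 5.54% of all genes were in that direction (11.9% higher, 17.5% in all). Against WT Cre alone the log2 fold change was -0.45 ± 0.23 with an adjusted p of 0.175, and without WT Cre 3 it was -0.72 with an adjusted p of 0.018.

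Apoa2, which encodes apolipoprotein A-II, the second protein of HDL, changed less but without overlap. It stood at 5265, 4873, 4453 and 4146 CPM in KO, at 5773, 6189 and 5891 in WT Cre and at 7437, 6988 and 6104 in MCS. Every KO liver lay below every control. Apoa2 fell by 0.45 ± 0.13 on the log2 scale against all controls (adjusted p 0.0137 in edgeR, exact permutation p 0.00476, the smallest that 4 against 6 samples can give). The call was lost in 5 of 19 alternative settings, among them without KO 3 (adjusted p 0.0509 in edgeR), with library totals alone (0.0675) and on FPKM. Against MCS it fell by 0.55 ± 0.13 (adjusted p 0.00637 in edgeR), and against WT Cre the log2 fold change was -0.35 ± 0.13 (adjusted p 0.0609), which passed without KO 1 (adjusted p 0.0084).

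Apom was the member in which the 2 kinds of control lay farthest apart after Apoa1. It stood at 109, 111 and 100 CPM in WT Cre, at 170, 189 and 208 in MCS and at 115, 276, 277 and 257 in KO. KO 2 to 4 lay above all 6 controls, while KO 1 lay just above WT Cre and below MCS. Against WT Cre Apom rose by 1.12 ± 0.25 on the log2 scale (2.17-fold), with an adjusted p of 0.00765 in edgeR, which put it past the fold limit of the study, as 10.6% of all genes were in that direction (5.33% lower, 15.9% in all). Against MCS the log2 fold change was 0.29 ± 0.25 (adjusted p 0.402 in edgeR) and against all controls 0.65 ± 0.28 (adjusted p 0.0981). Without KO 1 the change was 0.87 against all controls (adjusted p 0.0128 in edgeR) and 0.52 against MCS (adjusted p 0.00127). With all livers Apom also passed against all controls in the fit of 3 groups (0.71, adjusted p 0.0189 in edgeR) and with library totals alone (0.86, adjusted p 0.027).

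Apoe was the only member that passed the test in the same direction against each kind of control and against both together. Its protein is the ligand by which remnant particles are taken up. It stood at 15868, 14093, 12842 and 11733 CPM in KO, at 18784, 19784 and 18620 in WT Cre and at 20350, 20823 and 17167 in MCS. All 4 KO livers lay below all 6 controls, and the 2 kinds of control lay at the same level (log2 difference -0.03, 95% interval -0.35 to 0.29). Apoe fell by 0.50 ± 0.13 on the log2 scale against all controls (adjusted p 0.00888 in edgeR, exact permutation p 0.00476), by 0.48 ± 0.14 against WT Cre (adjusted p 0.0203) and by 0.51 ± 0.14 against MCS (adjusted p 0.0135). On FPKM none of these calls held. The call against all controls held whichever liver was left out. Those against a single kind did not, with adjusted p of 0.0513 to 0.0754 in edgeR without WT Cre 1, 2 or 3, KO 3 or KO 4 (against WT Cre) and of 0.0574 and 0.0671 without MCS 1 or 2 (against MCS).

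Its neighbour Apoc1, whose protein slows the uptake of remnants, followed the same pattern in 3 of the 4 KO livers. Apoc1 stood at 4366, 2908, 2379 and 2246 CPM in KO, at 3528, 4036 and 3772 in WT Cre and at 4533, 4429 and 3777 in MCS. KO 1 lay within the controls and KO 2 to 4 below all of them. The log2 fold change against all controls was -0.43 ± 0.18 with an adjusted p of 0.0765 in edgeR. Without KO 1 it was -0.68 with an adjusted p of 0.000806, and Apoc1 then also passed against WT Cre (-0.59, adjusted p 0.00194 in edgeR) and against MCS (-0.76, adjusted p 0.000294).

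The genes that act on the lipolysis of triglyceride-rich particles gave smaller changes. Apoc3 encodes an inhibitor of lipolysis and of remnant uptake. It stood at 1981, 1265, 1378 and 1352 CPM in KO, at 1472, 1660 and 1498 in WT Cre and at 2093, 2330 and 1828 in MCS. KO 1 was again the highest KO liver and lay within MCS, while KO 2 to 4 lay below all controls. The log2 fold change was -0.28 ± 0.17 against all controls (adjusted p 0.223 in edgeR) and -0.05 ± 0.16 against WT Cre (adjusted p 0.862). Apoc3 fell by 0.48 ± 0.16 against MCS (adjusted p 0.0386 in edgeR), a call that was lost in 14 of 19 alternative settings, among them leaving out any control liver but MCS 3 and any KO liver but KO 1 (adjusted p 0.0534 to 0.157 in edgeR). Without KO 1 Apoc3 passed against all controls (-0.45, adjusted p 0.03 in edgeR).

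Apoa5, whose protein promotes lipolysis, opposite in action to apolipoprotein C-III, stood at 1257, 948, 825 and 970 CPM in KO, at 1278, 1256 and 1218 in WT Cre and at 1455, 1588 and 1170 in MCS. KO 1 lay within the controls, and KO 2 to 4 lay below all of them. Apoa5 fell by 0.41 ± 0.14 on the log2 scale against all controls (adjusted p 0.0353 in edgeR) and by 0.49 ± 0.15 against MCS (adjusted p 0.0283), with a log2 fold change of -0.32 ± 0.15 against WT Cre (adjusted p 0.138). The call against all controls was lost in 10 of 19 alternative settings, among them without WT Cre 1, MCS 1, MCS 2, KO 2, KO 3 or KO 4 (adjusted p 0.0507 to 0.139 in edgeR). The call against MCS was lost without WT Cre 3 or any of the same livers but WT Cre 1 (0.0518 to 0.132 in edgeR), and without KO 1 Apoa5 passed against WT Cre (-0.45, adjusted p 0.0095).

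Apoa4, which is expressed in both liver and intestine in mice, did not pass the test in any comparison. It stood at 441, 243, 278 and 468 CPM in KO, at 199, 407 and 220 in WT Cre and at 335, 224 and 165 in MCS. The groups overlapped and the spread within each was wide, with coefficients of variation of 31.8% in KO and 35.8% in the controls. The log2 fold change against all controls was 0.47, with a 95% interval of -0.13 to 1.06 (adjusted p 0.207 in edgeR). Of the enterocyte markers, Alpi had 0 counts in every library, Sis at most 2 and Lct at most 4. Fabp2, which is also made in liver, and Vil1 were found in every library. Vil1 rose from a mean of 0.303 CPM in the controls to 2.62 CPM in KO (3.08 on the log2 scale, adjusted p 5.46e-05 in edgeR, no overlap), and its part in the Apoa4 values was not tested.

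Of the pair that starts VLDL assembly, Mttp rose and Apob did not pass. Mttp stood at 472, 506, 521 and 489 CPM in KO, at 459, 407 and 418 in WT Cre and at 360, 350 and 448 in MCS. All KO livers lay above all controls, although by little over the highest control. Mttp rose by 0.29 ± 0.11 on the log2 scale against all controls, with an adjusted p of 0.0499 in edgeR that lay at the threshold and an exact permutation p of 0.00952. The call was lost in 9 of 19 alternative settings, among them without WT Cre 2 or 3, MCS 1 or 2, or KO 2, 3 or 4 (adjusted p 0.0626 to 0.117 in edgeR). Against MCS Mttp rose by 0.37 ± 0.12 (adjusted p 0.0327 in edgeR), a call lost without MCS 1 or 2 or KO 2 or 3 (0.0615 to 0.144), and against WT Cre the log2 fold change was 0.22 ± 0.12 (adjusted p 0.195).

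Apob, the structural protein of VLDL, stood at 5932, 5881, 4885 and 5119 CPM in KO, at 4166, 4613 and 5241 in WT Cre and at 4285, 4378 and 5110 in MCS. KO 1 and KO 2 lay above all controls and the other KO livers within their range. The log2 fold change was 0.24 against all controls with a 95% interval of -0.02 to 0.50 (adjusted p 0.148 in edgeR), 0.22 ± 0.14 against WT Cre and 0.25 ± 0.14 against MCS. Apob passed the test against all controls with DESeq2 (0.26, adjusted p 0.0485) and when libraries were scaled by their totals alone (0.41, adjusted p 0.0112 in edgeR). On FPKM the blank WT Cre value was read as 0. There its log2 fold change reached 2.57 against all controls and 4.69 against WT Cre, without passing. With a false 0 among the controls, these fits cannot tell whether Apob changed. With the blank left out, the KO livers stood at 1122 to 1293 FPKM and the 5 controls at 873 to 1114, without overlap. This difference was not tested.

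**Figure D3:**
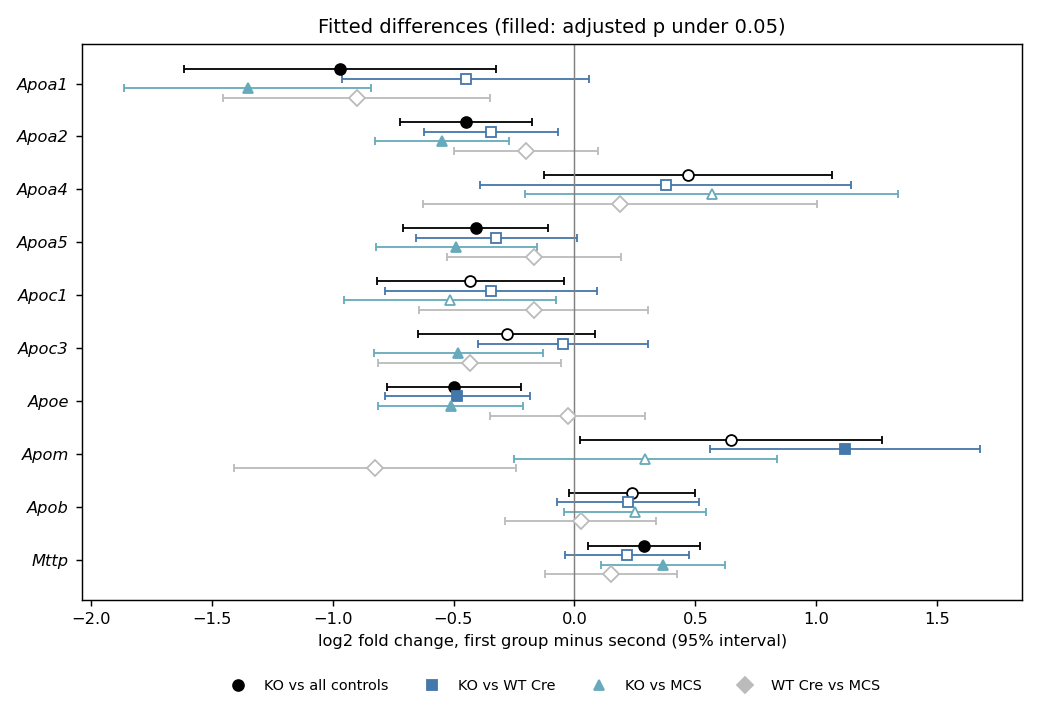
Log2 fold change of each gene in KO against all controls, against WT Cre and against MCS, and of WT Cre against MCS, with 95% intervals from the edgeR fit and filled symbols where the adjusted p was under 0.05. Apoa1 against MCS (-1.35) and Apom against WT Cre (1.12) lay farthest from 0, and the intervals of Apoe and Apoa2 lay below 0 in all 3 comparisons with KO.

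Taken by kind of control, 1 member fell (Apoe) and 1 rose (Apom) against WT Cre, where 28.4% of all genes passed the test (15.3% higher and 13.1% lower). Against MCS 5 fell (Apoa1, Apoa2, Apoa5, Apoc3 and Apoe) and 1 rose (Mttp), where 32% of all genes passed (17.3% higher and 14.8% lower). Both comparisons use the same KO livers. Groups lay fully apart in 4 members against WT Cre (36% of all genes) and in 4 against MCS (35.5%). The median log2 fold change of the members was -0.18 against WT Cre and -0.48 against MCS. Without KO 1, 4 members fell and 1 rose against WT Cre, beside 17.4% and 19.5% of all genes, and 6 fell and 2 rose against MCS, beside 18.7% and 20.9%.

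The difference between the 2 kinds of control was tested directly in the same fit. None of the 10 members passed in WT Cre against MCS with edgeR, where 0.927% of all genes passed (0.441% higher and 0.486% lower). An unadjusted p under 0.05 in edgeR was held by 3 members. The share of all genes at that level was not counted, though it is at least 0.927%, so this count is not read as a result either. DESeq2 called 1 of these 3 members, Apoa1, and 651 of all 22449 genes. All 3 WT Cre livers lay below all 3 MCS livers for Apoa1, Apoc3 and Apom, as groups did not overlap for 22.2% of all genes. Apoa1 differed by -0.90 ± 0.25 on the log2 scale between the controls (adjusted p 0.148 in edgeR, exact permutation p 0.1, the smallest that 3 against 3 can give), almost as much as KO differed from all controls. Apom differed by -0.82 ± 0.26 (adjusted p 0.24 in edgeR, but 0.000917 without KO 1 and 0.00235 when only the controls were fitted, with a difference of -0.83 in both) and Apoc3 by -0.43 ± 0.17 (adjusted p 0.385). The match of control libraries to the 2 kinds rests on the library number in the labels, on which the comparison with all 6 controls does not depend.

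The 4 KO livers did not move alike. Set against the mean of the 6 controls, KO 1 stood at 109% for Apoc1 and for Apoc3, at 94.7% for Apoa5 and at 78.2% for Apom. KO 2, 3 and 4 stood at 72.5%, 59.3% and 56.0% for Apoc1, at 69.7%, 76.0% and 74.6% for Apoc3, and at 187%, 187% and 174% for Apom. For these genes KO 1 lay on the side of the controls, and for Apoc1, Apoc3 and Apom on the other side of the control mean from the rest. Apoa1 stood at 56.6%, 49.6%, 44.4% and 53.8% in KO 1 to 4, with KO 1 near the others. Apob (128%, 127%, 105% and 111%) and Apoa4 (171%, 93.9%, 108% and 181%) had KO 1 among the livers farthest from the controls. Apoe (82.4%, 73.2%, 66.7% and 60.9%) and Apoa2 (82.3%, 76.2%, 69.6% and 64.8%) were lower in every KO liver, least in KO 1. Mttp was higher in every KO liver, at 116% to 128%.

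**Figure D4:**
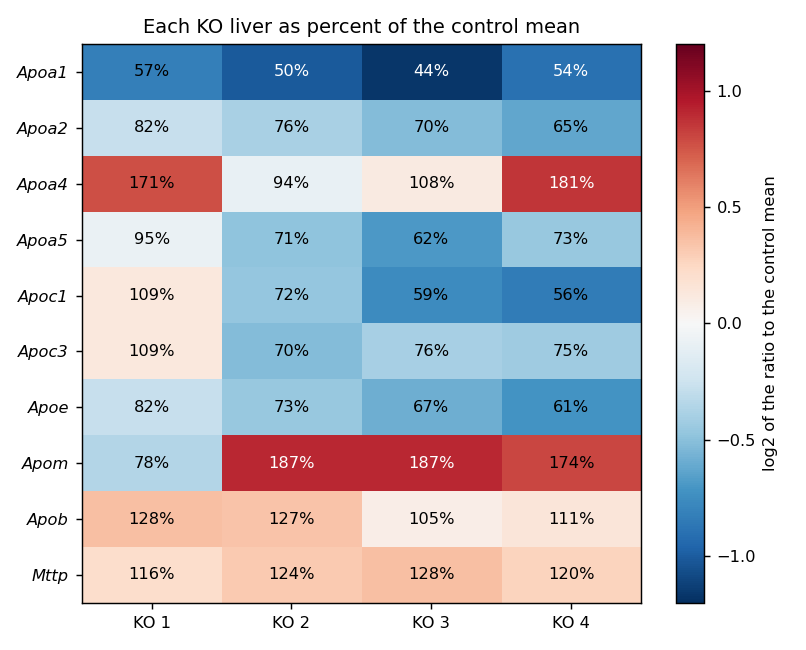
Level of each gene in each KO liver as a percentage of the mean of the 6 control livers (CPM), coloured by its log2. Apoa1, Apoa2 and Apoe were below 100% in all 4 KO livers, whereas Apoc1, Apoc3 and Apom in KO 1 lay on the other side of 100% from KO 2 to 4.

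Pairs of members, neighbours or not, could be read as ratios within a library, where scaling cancels. The ratio of Apoe to Apoc1 counts averaged 4.78 in KO livers (3.63 to 5.40) and 4.82 in control livers (4.49 to 5.32), so the ranges of this chromosome 7 pair overlapped. The ratio of Apob to Mttp was 11.0 ± 1.38 (SD) in KO livers and 11.5 ± 1.28 in control livers. In the chromosome 9 cluster the ratio of Apoa1 to Apoc3 was 2.62 ± 0.410 in KO, 3.36 ± 1.18 in WT Cre and 4.66 ± 0.317 in MCS. The ratio of Apob to Apoa1, the main proteins of VLDL and HDL, ranged from 1.27 to 1.58 in KO, from 0.673 to 1.75 in WT Cre and from 0.393 to 0.650 in MCS. It lay above MCS in every KO liver and within the range of WT Cre.

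The other genes of the pathway were counted from lists that were chosen with earlier results of these data known, and their counts against all controls stand beside 19.7% of all genes higher and 16.6% lower. Of 7 tested genes named for apolipoproteins outside the members, 5 fell and 1, a receptor, rose, with a median log2 fold change of -0.55. Apoc4 fell by 0.90 ± 0.20 on the log2 scale, Apof by 0.72 ± 0.15, Apon by 0.70 ± 0.17 and Apoh by 0.51 ± 0.13. Each of these changes was at least as large as that of Apoe. Apoh did not pass against WT Cre alone (-0.37, adjusted p 0.0557 in edgeR). Apobr, the receptor of apolipoprotein B48 in macrophages, rose by 1.82 ± 0.26, and Apoc2 did not pass (-0.55 ± 0.24). Apoc2 and Apoc4 overlap an annotated gene of their own strand, which leaves their counts less certain.

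Of 18 genes of VLDL assembly and secretion, 3 rose and 8 fell, with a median log2 fold change of -0.14. Tm6sf2, which is needed to lipidate VLDL, rose by 1.22 ± 0.11 on the log2 scale (adjusted p 5.09e-06 in edgeR). Apobec1, which edits Apob mRNA to the B48 form, rose by 1.05 ± 0.19, and Lpcat3, a phospholipid-remodelling enzyme, by 0.52 ± 0.14. Lpcat3 did not pass against WT Cre alone (0.49, adjusted p 0.0502 in edgeR). Among the genes that fell were Aadac (-1.23 ± 0.21), Pemt, which makes phosphatidylcholine (-0.87 ± 0.11), Cideb, which acts in VLDL lipidation (-0.81 ± 0.14), and Mia2, a receptor for large secretory cargo (-0.63 ± 0.10). Genes of the same route as Apob and Mttp therefore moved both ways.

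Of 8 HDL genes, 2 rose and 1 fell, shares near those of all genes, with a median log2 fold change of -0.09. The cholesterol exporters Abcg1 (1.48 ± 0.19) and Abca1 (0.43 ± 0.15), which are also expressed in macrophages, rose, and Pon3, an HDL-bound esterase, fell by 0.69 ± 0.10. Abca1 did not pass against MCS alone (0.25, adjusted p 0.238 in edgeR). Of 8 lipases and their regulators 2 rose and 1 fell (median 0.07), also near the shares of all genes. Lpl, lipoprotein lipase, stood at 2.28 ± 0.29, Lipc, hepatic lipase, at 0.55 ± 0.13 and the lipase maturation factor Lmf1 at -0.65 ± 0.14. Lpl is also 1 of 5 markers of lipid-associated macrophages, of which 4 rose and 1 fell, and their part in its rise was not tested. Of 9 receptors and their regulators 4 rose and none fell at an adjusted p of 0.05 in edgeR (median 0.26). Among them were Sdc1 (0.80 ± 0.16), a proteoglycan that takes up remnants, Lsr (0.53 ± 0.15) and Mylip (0.51 ± 0.18). Mylip did not pass against MCS alone (0.35, adjusted p 0.216 in edgeR).

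Of 16 transcription factors and cofactors known to act on apolipoprotein genes, 5 fell and none rose in edgeR. Among them were Foxa2 (-1.08 ± 0.22), Ppargc1a (-0.997 ± 0.18), Ppara (-0.39 ± 0.14) and Creb3l3 (-0.36 ± 0.11). Foxa2 and Ppargc1a also fell against each kind of control. Ppara passed against neither kind alone (adjusted p 0.0808 in edgeR against WT Cre and 0.135 against MCS). Creb3l3 passed against MCS (0.0177) but not against WT Cre (0.0947). Hnf4a stood at -0.55 ± 0.23 with an adjusted p of 0.0763 in edgeR. It passed against MCS (-0.76, adjusted p 0.0336) but not against WT Cre (-0.31, adjusted p 0.371). The median log2 fold change of the 16 was -0.29, beside -0.34 for the 10 members. Without KO 1, 18.9% of all genes were lower and 22% higher against all controls. Beside these shares, the counts were 6 lower and 1 higher for the other apolipoproteins, and 8 lower and 3 higher for VLDL assembly. For the HDL genes and likewise for the lipases they were 2 lower and 2 higher, near the shares of all genes. They were 0 lower and 4 higher for the receptors, and 5 lower and 0 higher for the transcription factors.

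The genes whose levels followed Apob and Apoa4 most closely over the 10 livers were found by the root mean square difference of the log2 CPM profiles, each centred on its own mean, among 1402 genes of at least 100 CPM. For Apob, Ctsh (0.101) and Mlf2 (0.103) were among the nearest 3, against a standard deviation of 0.179 for Apob itself. Gpd1 (0.344), Anxa5 (0.347) and Gpx4 (0.351) came nearest to Apoa4, whose own standard deviation was 0.519, so no gene followed Apoa4 closely.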

How the data were processed

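Poly(A) RNA of 10 mouse livers was sequenced from directional libraries. The submitters' processing notes list STAR, HTSeq and Cufflinks with mm10, whereas the methods of the study name HOMER for counting; the versions of HTSeq, Cufflinks and HOMER are not given in the sources used here. The deposited tables hold raw counts per gene and FPKM, both made by the authors. Counts were fitted with edgeR 4.0.16 in R 4.3.3 (quasi-likelihood F test, TMM scaling, genes with at least 10 counts in all, Benjamini-Hochberg adjustment over 22449 genes). KO was compared with all controls in a fit of 2 groups, and with WT Cre and MCS in a fit of 3 groups. Standard errors were derived from F as log2 fold change over its square root, and intervals are at 95%. Exact two-sided permutation tests over samples used log2 CPM without a prior count. The principal components and the likeness of profiles used log2 CPM with a prior count of 2. FPKM was tested as log2(FPKM + 1) with limma 3.58.1, and DESeq2 1.42.0 was an alternative. The alternatives also covered scaling by library totals, no filter, a replicate block and leaving out each liver. Scripts were tested on simulated data. Labels do not say more of the replicates than that they are separate mice by title, so p-values measure the spread between these samples. Depth was 14998426 to 26096141 counts per library, which at these levels leaves little counting error.

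The members and gene lists were chosen with earlier results of these data known, as were the motifs. All 10 members were named, and from each list up to 4 passing genes per direction with the largest absolute log2 fold change and at least 1 CPM; some genes of these lists are counted but not reported singly here. The control columns were matched to samples by number. The replicate numbers were not taken to pair the samples, since the labels give no pairing. The correlations of same-numbered deviations ranged from -0.122 to 0.203, and 7 of 9 samples correlated best with their own number. These values do not settle whether samples were paired, and a replicate block was run as an alternative.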

Additional observations from a re-analysis of the deposited data

Results flagged for a closer look

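In 2 of 22 groups of member values a single liver stood far from the rest, judged by its gap to the nearest liver over the whole range of the group (Dixon's test at its 95% limit). Chance alone flags about 1 in 20 groups. Both were KO 1. Apoc3 in KO had its highest value there, at 1981 CPM against 1265 to 1378 in the other KO livers, with a gap of 0.842 of the range. Apom in KO had its lowest value there, at 115 CPM against 257 to 277, with a gap of 0.876 of the range. KO 1 also had the fewest counts and lay nearer to the controls on the first principal component, and the part of either in these values was not tested.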

How the results depend on the processing

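Of 760 values of single members under alternatives, 642 kept their direction and side of the threshold, 76 were past it only in the reported fit, 23 only in the alternative, and 19 changed direction. None of the 19 was past the threshold as reported.

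Against all controls (1 member higher, 4 lower), 2 were higher with DESeq2, 3 with library totals alone, 0 without the filter, 0 with the replicate block and 2 with the fit of 3 groups, and 2 were lower with library totals alone, 1 with the replicate block and 0 on FPKM with a pseudocount of 1 or of 0.1. Leaving out each liver gave 0 to 2 higher and 1 to 6 lower. Of all 22449 genes, 4429 were higher and 3726 lower as reported, 4492 and 3638 with DESeq2, and 5635 and 2172 with library totals alone. With the fit of 3 groups they were 4701 and 3845, and with the replicate block 3543 and 2768. Without the filter they were 4259 and 3146 of 33924 genes. On FPKM they were 4754 and 2053 with a pseudocount of 1, and 4783 and 2118 with 0.1. On leaving out each liver, 3675 to 4872 were higher and 2739 to 4205 lower. Against WT Cre (1 higher, 1 lower), 2 were lower with DESeq2, 2 without the filter and 0 on FPKM with either pseudocount. With library totals alone and on FPKM with either pseudocount 2 were higher. Leaving out each liver gave 1 higher and 0 to 4 lower. Of all genes 2939 were lower as reported, 2880 with DESeq2, 2582 without the filter, and 2096 and 2057 on FPKM. Higher were 3444 as reported, 4006 with library totals alone, and 3016 and 3087 on FPKM. On leaving out each liver, 2317 to 4330 were higher and 1949 to 3857 lower. Against MCS (1 higher, 5 lower), 2 were higher with library totals alone and 0 when only these groups were fitted. Lower were 1 with library totals alone, 1 on FPKM with either pseudocount and 3 when only these groups were fitted. Leaving out each liver gave 0 to 2 higher and 2 to 6 lower. Of all genes 3880 were higher and 3312 lower as reported, and 5594 and 1697 with library totals alone. With only these groups they were 3352 and 2517 of 21231, and on FPKM 1502 and 1530 were lower. On leaving out each liver, 2731 to 4639 were higher and 2248 to 4142 lower. Between the controls, 1 was lower with DESeq2, with the replicate block and with only these groups, and 0 to 1 on leaving out each liver. Of all genes 109 were lower as reported, 337 with DESeq2 and 178 with the replicate block. With only these groups 334 of 20103 were lower, and on leaving out each liver 29 to 267. Library totals alone shifted the median over all genes against all controls from -0.00299 to 0.17 (log2), so calls under that scaling are relative to a shifted centre.

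The difference in the summed share of counts, -0.681 percentage points, ranged from -0.821 to -0.583 on leaving out each liver. It was -1.11 without the 50 most abundant other genes, and as a share of FPKM it was -1.16. These have other bases, since the control livers held 5.84% to 7.22% and 4.85% to 6.88%, against 3.76% to 4.84% of counts. The differences are therefore not on the same scale, and the FPKM share of WT Cre 2 lacks the blank Apob value. The ratio of Apoe to Mttp levels was 254 on FPKM and 140 per kilobase of merged exons.

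Direction changed for Apoc3 against WT Cre with library totals alone (0.055), on FPKM (0.062 with either pseudocount), without WT Cre 2 (0.0089) and without KO 2 (0.0287, the highest on leaving out a liver, with -0.213 without KO 1 the lowest). Between the controls it changed for Apoe with library totals alone (0.11), on FPKM (0.15 with either pseudocount) and without MCS 1 (0.0045) or MCS 2 (0.0227, the highest, with -0.111 without MCS 3 the lowest). It also changed for Apoa5 on FPKM (0.081 with either pseudocount), and for Apoa4 without WT Cre 2 (-0.20) or MCS 3 (-0.022), with 0.499 without MCS 1 the highest. Apob changed on FPKM (-3.13 and -4.24, where a blank WT Cre value was read as 0) and without WT Cre 3 (-0.0573), MCS 1 (-0.022) or MCS 2 (-0.0082). Apart from the blank Apob value, the cause was not tested. The labels give replicate numbers but no pairing by animal or day, and 7 of 9 samples correlated best with their own number, a hint from the data only.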
